A study of Rattus norvegicus with 98 samples.

Results

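The BCL2 family and death ligand genes described here are the guardians Mcl1, Bcl2l1 and Bcl2, the effectors Bax and Bak1, the activators Bcl2l11 and Bid, the death ligand Tnfsf10 and the death receptor Fas. These 9 genes were chosen by name, and every probe set that the array annotation gives to them was used, with no filter on low values. The array holds 16 probe sets that name only 1 of these genes, of 31042 probe sets tested, and they cover 8 of the 9 genes. Genes named by a probe set of their own numbered 14217 in all. The remaining gene, Bax, has only the probe set 1369122_at, which the annotation gives to both Bax and LOC681314, so its values belong to the pair and are kept out of the counts of 16.

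Messenger RNA was measured on Affymetrix Rat230_2 arrays in nasal cells of 98 male F344/NCrl rats of 8 weeks, with 1 array per animal. Rats breathed air alone or 0.7, 2 or 6 ppm formaldehyde, a reactive gas that crosslinks protein and DNA, in whole-body exposures of 6 h per day on 5 days per week, and were examined 6 h, 24 h, 5 days, 8 days or 19 days after the first exposure began. A second array set, examined at 6 h, held rats that breathed 15 ppm with their own air controls, and rats that received 40 µl of 400 mM formaldehyde or of distilled water in each nostril. Each of the 24 groups had 4 animals, except that air at 8 days and 2 ppm at 5 days had 5. No genotype or transgene differed between the groups, and the 0.7, 2 and 6 ppm groups of a time share the same air animals, so their differences from air are not independent of each other.

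The cells came from the level II nose, where a protease digest of the nasoturbinate and lateral meatus yielded mainly transitional and some respiratory epithelium, and the labels state that olfactory epithelium was discarded. The epithelial markers Epcam, Cdh1, Krt8, Krt18, Krt5 and Krt15 all had high mean log2 values over the 98 arrays, between 10.72 and 13.45. Markers of other cells were high as well, with mean log2 values of 11.96 for the olfactory neuron gene Omp, 14.47 for the globin gene Hbb and 13.15 for the collagen gene Col1a1. In such mixed cells, fewer cells of a type and less RNA per cell cannot be told apart. Array medians lay between 5.94 and 6.07 on the log2 scale, and the lowest correlation between 2 arrays of a group was 0.962.

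Cells die by apoptosis along a mitochondrial route and a receptor route. In the mitochondrial route, the effectors Bax and Bak1 open the outer mitochondrial membrane, the guardians Bcl2, Bcl2l1 (BCL-XL) and Mcl1 hold them back, and activators such as Bcl2l11 (BIM) release or switch them on. In the receptor route, ligands such as Tnfsf10 (TRAIL) and Fas ligand bind receptors that start caspases, and cleaved Bid carries that signal to mitochondria. In a surface epithelium these genes take part in the removal of injured cells, and Fas and Tnfsf10 are also used by immune cells.

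Of the 9 genes, 5 carry the results below, and their promoters are shown so that the start regions of genes that moved at the high doses can be compared. The windows are the 250 bases before the RefSeq start in the GRCr8 build, written 5′ to 3′ on the strand of the gene, with matches to the searched motifs in capitals. They lie at chr2:112136689-112136938 (plus strand) for Tnfsf10, chr1:241211905-241212154 (plus) for Fas, chr2:185907918-185908167 (plus) for Mcl1, chr3:135819792-135820041 (plus) for Bcl2l11 and chr4:155808320-155808569 (minus) for Bid.
Tnfsf10: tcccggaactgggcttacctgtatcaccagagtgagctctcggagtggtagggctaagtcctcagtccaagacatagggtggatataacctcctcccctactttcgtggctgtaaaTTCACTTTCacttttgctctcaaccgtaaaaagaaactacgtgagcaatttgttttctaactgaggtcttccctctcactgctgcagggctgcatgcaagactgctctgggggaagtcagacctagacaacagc
Fas: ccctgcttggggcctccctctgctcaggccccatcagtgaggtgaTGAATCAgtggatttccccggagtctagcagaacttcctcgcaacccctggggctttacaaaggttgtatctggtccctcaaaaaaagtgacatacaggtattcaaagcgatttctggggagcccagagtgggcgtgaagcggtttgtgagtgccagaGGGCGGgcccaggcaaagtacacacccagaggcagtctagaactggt
Mcl1: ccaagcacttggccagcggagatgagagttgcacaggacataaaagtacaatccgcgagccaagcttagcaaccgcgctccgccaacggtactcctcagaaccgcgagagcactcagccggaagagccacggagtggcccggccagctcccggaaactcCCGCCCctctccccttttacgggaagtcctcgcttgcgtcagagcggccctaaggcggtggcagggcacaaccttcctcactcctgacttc
Bcl2l11: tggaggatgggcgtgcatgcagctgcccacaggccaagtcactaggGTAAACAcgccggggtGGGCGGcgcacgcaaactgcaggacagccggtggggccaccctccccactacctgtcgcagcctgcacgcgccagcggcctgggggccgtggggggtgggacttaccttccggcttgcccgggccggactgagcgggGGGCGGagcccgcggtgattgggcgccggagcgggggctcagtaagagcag
Bid: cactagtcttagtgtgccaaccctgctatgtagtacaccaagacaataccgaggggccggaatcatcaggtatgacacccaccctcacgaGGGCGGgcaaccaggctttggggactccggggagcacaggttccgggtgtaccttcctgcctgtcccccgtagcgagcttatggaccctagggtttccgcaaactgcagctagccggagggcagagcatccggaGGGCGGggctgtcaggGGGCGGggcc
The motifs, searched on both strands, were the CRE TGACGTCA, AP-1 TGANTCA, NF-kappaB GGGNNTTCC, the interferon-stimulated response element GAAANNGAA, FOXO TGTTTAC and the GC box GGGCGG. Tnfsf10 held a single match, to the interferon-stimulated response element on the opposite strand, 134 to 126 bases before the start, and 8.12% of all 33469 windows held that motif. Fas held an AP-1 match 205 to 199 bases before the start, a motif found in 6.34% of windows, and a GC box. Bcl2l11 held a FOXO match on the opposite strand, 204 to 198 bases before the start, against 3.21% of windows, and 2 GC boxes. Mcl1 held 1 GC box and Bid held 3, and the GC box was in 30.5% of windows. None of the 5 windows held the CRE or NF-kappaB letters, which were in 1.59% and 5.09% of windows. Promoters of Bcl2, Bcl2l1 and Bak1 were searched too, and only that of Bak1 held a match, a GC box.

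Tnfsf10 fell after inhaled 6 and 15 ppm, Fas, Mcl1 and Bid rose after instillation, and Bcl2l11 rose after both 15 ppm and instillation. For Fas and Bid after instillation and Bcl2l11 at 15 ppm, the result rested on 1 of the gene's probe sets, and Tnfsf10 has only 1. For Bid after instillation and Bcl2l11 at 15 ppm, the mean of the gene's probe sets did not pass the test. No probe set of Bcl2, Bcl2l1 or Bak1 passed the test at any dose. A probe set is called here when its adjusted p from limma, with Benjamini-Hochberg adjustment over all probe sets of a comparison, is under 0.05. At 15 ppm 2 of the 16 member probe sets were called, 1 higher and 1 lower, in a comparison where 8.49% of all probe sets were called. After instillation 6 of 16 were called, all higher, where 22.2% of all probe sets were called. At 6 ppm 1 of 16 was called at 6 h, lower, where 0.245% of all were called. At 24 h, 5 days, 8 days and 19 days of 6 ppm none of the 16 was called, where 0.00322%, 0.119%, 0.029% and 0.412% of all were. At these times 2, 6, 0 and 3 of 16 had an unadjusted p under 0.05, beside 2350, 2248, 1907 and 3678 of all 31042 probe sets. At 0.7 ppm none was called at any time (0%, 0%, 0.00644%, 0% and 0% of all probe sets at 6 h, 24 h, 5, 8 and 19 days), nor at 2 ppm (0.00322%, 0%, 0.0741%, 0% and 0%). At an unadjusted p under 0.05, 1 of 16 passed at 0.7 ppm and 24 h and 0 at its other times, and 1, 1, 2, 0 and 4 of 16 passed at 2 ppm. Of all 31042 probe sets, 409, 1889, 762, 1021 and 818 passed so at 0.7 ppm, in order of time. At 2 ppm these counts were 1742, 1751, 2769, 1317 and 2682. Averaged over the 5 times, 2 ppm gave 1 call (0.361% of all) and 6 ppm gave 2 (6.37%), each of them lower, and 0.7 ppm gave none (0%). In the 0.7 ppm mean none of 16 had an unadjusted p under 0.05, beside 882 of all probe sets.

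Tnfsf10 encodes TRAIL, a membrane-bound and secreted ligand whose receptors recruit FADD and start caspases. Its only probe set, 1383189_at, fell at 6 ppm and at 15 ppm. At 6 h, air animals in the first array set had log2 values of 6.81, 7.08, 7.12 and 7.37, and the 4 animals at 6 ppm had 5.23, 5.82, 5.97 and 6.17. Every exposed animal lay below every air animal. The mean fell from 7.10 ± 0.23 to 5.80 ± 0.41 (SD, n = 4 each), a log2 difference of -1.30 ± 0.29 (standard error of the fit) or 2.47-fold, with a limma adjusted p of 0.0278. With the RNA integrity number in the fit, on the 85 arrays that have one, the difference was -1.20 and the adjusted p 0.168, and in a fit on the arrays of the compared groups only the adjusted p was 0.08. That number was 7.7 to 7.8 in 3 of the 6 ppm animals and 7.8 to 8.3 in air, and its part in the result was not tested further. The call was also lost without air animal 49, 52 or 53 (adjusted p of 0.119, 0.0761 and 0.0636) or 6 ppm animal 284 (0.155), with differences of -1.21, -1.29, -1.31 and -1.11.

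Lower doses at 6 h were compared with the same air animals and were not called. At 2 ppm the values were 5.14, 6.21, 6.38 and 7.17, and at 0.7 ppm they were 6.56, 6.71, 7.21 and 7.29. The 2 ppm animals ranged from below every 6 ppm animal to within the air range, and the 0.7 ppm animals overlapped air. The lowest 2 ppm animal had an RNA integrity number of 7.2, the lowest of the series. The part of that number was not tested. The log2 differences were -0.87 ± 0.29 at 2 ppm (limma adjusted p = 0.625) and -0.16 ± 0.29 at 0.7 ppm (0.9999).

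At later times of 6 ppm Tnfsf10 did not pass the test in the fit used throughout, although the groups separated at 5 and 19 days. At 5 days the air animals had 6.92, 7.19, 7.37 and 7.70 and the 6 ppm animals 5.73, 5.95, 6.33 and 6.40. At 19 days the air animals had 6.71, 6.94, 7.13 and 7.77 and the 6 ppm animals 5.63, 5.73, 6.29 and 6.45. At both times every exposed animal lay below every air animal, but the differences of -1.19 ± 0.29 and -1.11 ± 0.29 missed the threshold (limma adjusted p of 0.069 and 0.0566). At 19 days the call was gained without air animal 77 (-1.26, adjusted p 0.0447) or 6 ppm animal 310 (-1.25, 0.0458), without the dimmest 25% of probe sets (0.0451), and with adjustment over genes in place of probe sets (0.0331). At 5 days it was gained with array quality weights (-1.14, 0.0147). At 24 h the air values of 6.59, 6.85, 7.05 and 7.17 overlapped the 6 ppm values of 6.22, 6.35, 6.48 and 6.73, and the difference was -0.47 ± 0.29 (0.770). At 8 days the 6 ppm animals (6.32, 6.75, 6.86 and 7.47) overlapped the 5 air animals (6.35, 6.52, 6.60, 6.74 and 6.82), with a difference of 0.24 ± 0.28 (0.933). A difference of the 6 ppm effect between the 5 times was not shown for Tnfsf10 (limma F-test, adjusted p = 0.346), in a test where 0.0129% of all probe sets and none of the 16 were called. In that test 3 of 16 had an unadjusted p under 0.05, beside 1895 of all 31042 probe sets.

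Averaged over the 5 times, Tnfsf10 was lower at 6 ppm, with a log2 difference of -0.77 ± 0.13 (1.70-fold, limma adjusted p = 4.77e-05), and at 2 ppm, with -0.51 ± 0.13 (1.42-fold, 0.0467). At 0.7 ppm the mean difference was -0.21 ± 0.13 (adjusted p = 1), with a 95% interval from -0.47 to 0.05. The 6 ppm mean was called in each of 41 fits that left out 1 animal, between -0.81 and -0.72. The 2 ppm mean was called in only 14 of 42 such fits, between -0.57 and -0.43.

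**Figure D1:**
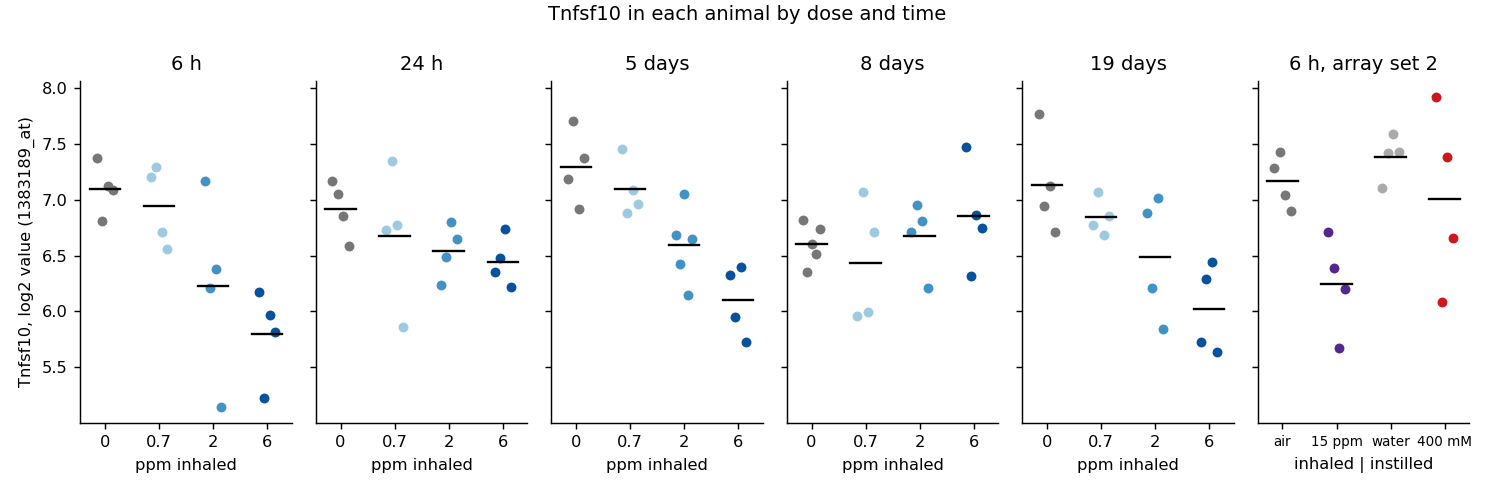
Log2 value of the Tnfsf10 probe set 1383189_at in each animal (points) with the group mean (bars), against inhaled dose in ppm at 5 times and, in the last panel, in the 4 groups of the second array set at 6 h. The 6 ppm animals lie below all air animals at 6 h, 5 days and 19 days and overlap them at 24 h and 8 days, and the 4 instilled animals range from 6.08 to 7.92.

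At 15 ppm Tnfsf10 was lower again, in other animals and against other controls. The air animals of the second array set had 6.90, 7.04, 7.29 and 7.43, and the 15 ppm animals had 5.67, 6.20, 6.39 and 6.71. The groups did not overlap, and the difference was -0.92 ± 0.29 (1.90-fold, limma adjusted p = 0.0309). Against air at 6 h of the first array set it was -0.86 (adjusted p 0.0332). The call was lost without air animal 321 or 322 (-0.88 and -0.83, adjusted p 0.0816 and 0.102) or 15 ppm animal 341 or 342 (-0.73 and -0.91, 0.168 and 0.074). The difference at 15 ppm was not shown to differ from that at 6 ppm (0.38 ± 0.41, 95% interval -0.44 to 1.20, adjusted p = 0.841), in a comparison that called none of the 16 and 1.19% of all probe sets. There 4 of 16 had an unadjusted p under 0.05, beside 3204 of all 31042 probe sets.

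Instilled formaldehyde left Tnfsf10 scattered. The water animals had 7.11, 7.42, 7.43 and 7.59 and the instilled animals 6.08, 6.66, 7.38 and 7.92, so the exposed animals lay on both sides of the controls. The difference of -0.37 ± 0.29 was not called (limma adjusted p = 0.392), and it was not shown to differ from that at 15 ppm (-0.55 ± 0.41, 95% interval -1.37 to 0.27, adjusted p = 0.764).

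Among markers of immune cells, the MHC class II gene RT1-Da fell with Tnfsf10 at 6 ppm and 6 h, by 0.73 ± 0.17 on the log2 scale (limma adjusted p = 0.0386), as the only called gene of 6 macrophage and dendritic markers. The mean log2 value of those 6 markers ran from 8.91 to 9.26 in the 6 ppm animals and from 9.26 to 9.58 in air. At 15 ppm none of the 6 was called and their mean ran from 9.12 to 9.49 against 9.29 to 9.45 in air, while Tnfsf10 was lower. None of 7 T and NK cell markers was called in either comparison. Over the 5 times of 6 ppm, RT1-Da and Cd74 were lower (-0.30 ± 0.08, adjusted p 0.011, and -0.22 ± 0.07, 0.0366). The mean of 4 olfactory markers ran from 11.01 to 11.72 at 6 ppm and 6 h, against 10.45 to 11.33 in air. For the 6 epithelial markers it ran from 11.84 to 11.96 against 11.92 to 12.11. At 6 ppm and 8 days the olfactory mean ran from 8.75 to 11.74, against 10.48 to 12.10 in air. The part of any of these cells in the Tnfsf10 result was not tested.

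**Figure D2:**
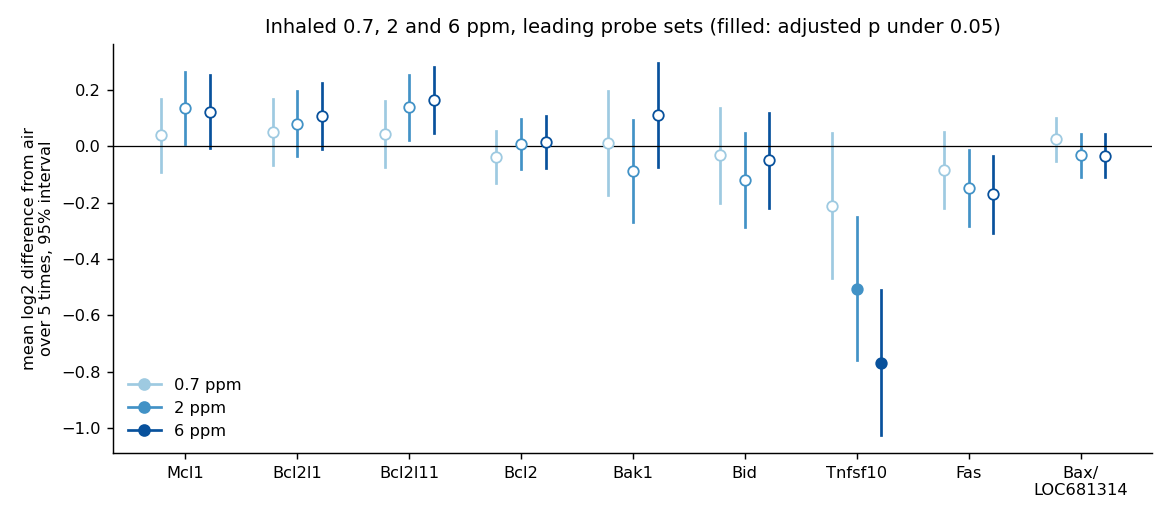
Mean log2 difference from air over 5 times (points) with its 95% interval (lines) for the leading probe set of each member, the one with the highest mean, at 0.7, 2 and 6 ppm. Filled points have an adjusted p under 0.05, and only Tnfsf10 at 2 and 6 ppm is filled.

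Fas encodes the receptor that Fas ligand engages to start the death-inducing signalling complex. Its leading probe set, 1384842_s_at, rose after instillation and was not called at any inhaled dose. The water animals had log2 values of 6.30, 6.36, 6.47 and 6.56, and the instilled animals had 6.96, 7.71, 7.87 and 8.38. All instilled animals lay above all water animals, with a wider spread. The mean rose from 6.42 ± 0.12 to 7.73 ± 0.59 (SD, n = 4 each), a difference of 1.31 ± 0.15 (2.47-fold, limma adjusted p = 2.06e-10), which was called in all 8 fits without 1 animal (1.09 to 1.56). The fit shares 1 estimate of spread over all groups, so its standard error does not fully carry the wider spread of the instilled animals. At 15 ppm the values of 6.10, 6.21, 6.40 and 6.52 overlapped air at 6.07, 6.14, 6.28 and 6.35, and the difference was 0.10 ± 0.15 (0.799). Another Fas probe set, 1397221_s_at, had 4.18, 4.21, 4.29 and 4.48 in air and 3.75, 3.95, 4.04 and 4.15 at 15 ppm. These did not overlap, and the difference of -0.32 ± 0.13 was not called (0.127), except with the RNA integrity number in the fit (-0.38, 0.0404).

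The 15 ppm difference was smaller than the instillation difference by 1.21 ± 0.22 on the log2 scale, with an adjusted p of 0.000381, and it was the only member probe set called in that test, where 0.879% of all probe sets were called. In a fit on these 4 groups alone the adjusted p was 0.122. The doses and routes are not matched, so the comparison is of these treatments, not of equal amounts of formaldehyde.

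The other Fas probe sets were not called after instillation. There 1369900_at differed by 0.11 ± 0.08 (limma adjusted p = 0.361) and 1397221_s_at by -0.08 ± 0.13 (0.736), and both had low mean log2 values of 4.21 and 4.15 over the 98 arrays. The mean of the 3 probe sets, which includes the called one, was 0.45 higher after instillation (limma adjusted p over genes = 1.68e-05). Inhaled 6 ppm gave Fas differences of either sign in the leading probe set, which were not called. At 6 h the leading probe set had 6.19, 6.23, 6.27 and 6.38 in air and 5.52, 5.78, 6.05 and 6.16 at 6 ppm, without overlap, a difference of -0.39 ± 0.15 (0.262). It was 0.04 ± 0.15 at 24 h, -0.38 ± 0.15 at 5 days, 0.17 ± 0.15 at 8 days and -0.30 ± 0.15 at 19 days (0.991, 0.574, 0.913 and 0.442). The probe set 1397221_s_at was called lower in the mean over the 5 times of 6 ppm, at -0.19 ± 0.06 (adjusted p = 0.0281), and the call was lost without 6 ppm animal 290 or 312, with an adjusted p of at most 0.0544. The leading probe set gave -0.17 ± 0.07 there (0.113). The mean of the 3 Fas probe sets was called lower over these times (-0.13, limma adjusted p = 0.0144).

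Neutrophil markers rose in the same animals. After instillation 5 of 6 neutrophil markers were called higher, among them the receptor Cxcr2 by 2.49 ± 0.24 on the log2 scale, and their mean log2 value ran from 7.96 to 8.89 against 6.07 to 6.58 after water. The T and NK cell genes Cd3e and Cd2, 2 of 7 such markers, and Cd68, 1 of 6 macrophage and dendritic markers, were called higher too, and the ciliated cell genes Foxj1 and Tppp3 (-0.66 ± 0.21 and -0.66 ± 0.25, 2 of 3 measured markers) and Col1a1 (-0.81 ± 0.26) were lower. The mean of 4 olfactory markers ran from 7.17 to 8.84 after instillation and from 7.68 to 9.78 after water. In air of the second array set it ran from 9.89 to 11.04. The RNA integrity number was 8.3 to 8.4 in instilled and 7.5 to 8.3 in water animals. With that number in the fit, all 6 member calls after instillation were kept, and Fas differed by 1.27. At 15 ppm 4 of 6 neutrophil markers were called higher and their mean ran from 7.03 to 7.17 against 5.69 to 6.08 in air, while Fas overlapped air. In the 4 instilled animals, Fas values of 6.96, 7.71, 7.87 and 8.38 came with neutrophil marker means of 8.31, 8.79, 7.96 and 8.89, so the highest values of both were in the same animal and the lowest were not. The part of these cells in the Fas, Mcl1, Bcl2l11 and Bid results after instillation was not tested.

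Mcl1 encodes a short-lived guardian that is needed for the survival of many cell types. Both of its probe sets rose after instillation. In the leading probe set 1372520_at the water animals had 10.82, 10.91, 10.96 and 11.02 and the instilled animals 11.59, 11.63, 11.93 and 11.95. In 1370141_at they had 9.17, 9.19, 9.51 and 9.70 against 10.24, 10.58, 10.62 and 10.64. The groups did not overlap in either probe set. The differences were 0.85 ± 0.15 (1.80-fold, limma adjusted p = 4.82e-06) and 1.12 ± 0.18 (2.18-fold, 6.73e-07), and both were called in all 8 fits without 1 animal.

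At 15 ppm Mcl1 was not called. The air animals had 10.61, 10.75, 10.85 and 10.91 in 1372520_at and the 15 ppm animals 10.98, 11.06, 11.18 and 11.28, which did not overlap. The difference was 0.35 ± 0.15 (limma adjusted p = 0.143), and 0.33 ± 0.18 in 1370141_at (0.297). With array quality weights the leading probe set was called (0.34, adjusted p = 0.0349), and against the other air group it was 0.19 (0.415). The difference between the 15 ppm and instillation effects was -0.50 ± 0.21 and -0.80 ± 0.25 in the probe sets, with adjusted p of 0.345 and 0.119, so it was not shown. Mean differences over the 5 times of 2 and 6 ppm were 0.14 ± 0.06 and 0.12 ± 0.07 (0.430 and 0.258).

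**Figure D3:**
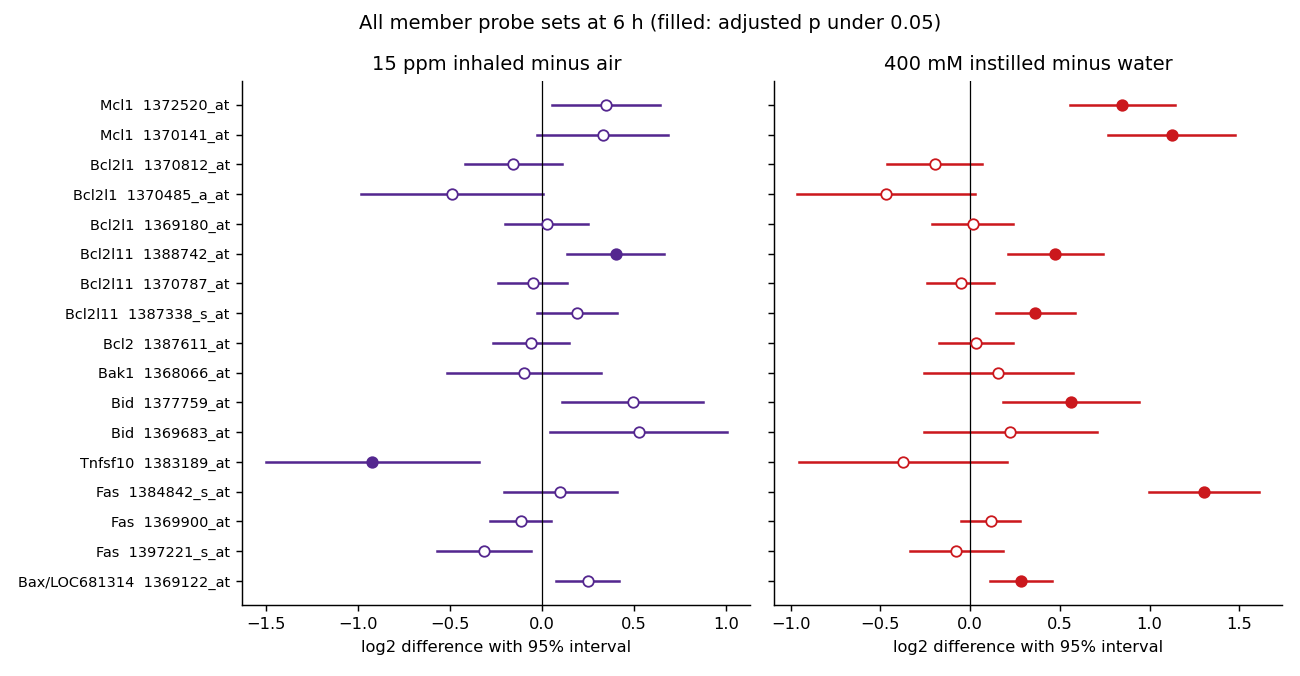
Log2 difference (points) with its 95% interval (lines) of every member probe set at 6 h, for 15 ppm inhaled minus air and for 400 mM instilled minus water. Filled points have an adjusted p under 0.05. After instillation Fas, Bcl2l11 and Bid each have both filled and open points, and probe sets were not tested against each other.

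Bcl2l11 encodes BIM, an activator that binds all guardians and is known as a target of stress kinases and FOXO factors. Its leading probe set, 1388742_at, was the only member probe set called higher at 15 ppm. The air animals had 7.58, 7.78, 7.78 and 7.88 and the 15 ppm animals 7.98, 8.18, 8.22 and 8.25. The groups did not overlap, and the difference was 0.40 ± 0.13 (1.32-fold, limma adjusted p = 0.0435). This call was lost in 6 of 8 fits without 1 animal, namely air animals 321, 322 and 323 (adjusted p of 0.0761, 0.159 and 0.0733) and 15 ppm animals 337, 338 and 342 (0.079, 0.0988 and 0.127), with differences of 0.34 to 0.41. Against the other air group the difference was 0.55 (0.0018). The other probe sets were not called against air of their own set, with -0.05 ± 0.09 for 1370787_at and 0.19 ± 0.11 for 1387338_s_at (0.838 and 0.343), and against the other air group the first was 0.26 (0.0434). The mean of the 3 probe sets was not called (0.18, 0.065).

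After instillation Bcl2l11 rose in 2 of its 3 probe sets. In 1388742_at the water animals had 7.57, 7.71, 7.88 and 8.04 and the instilled animals 7.98, 8.13, 8.42 and 8.57. The lowest instilled animal lay within the water range, and the difference was 0.47 ± 0.13 (1.39-fold, limma adjusted p = 0.00501). In 1387338_s_at the water animals had 3.65, 3.85, 3.91 and 4.02 and the instilled animals 3.98, 4.07, 4.20 and 4.63. Here too the lowest instilled animal lay within the water range, and the difference was 0.36 ± 0.11 (0.01). The mean log2 value of 1387338_s_at over the 98 arrays was low, at percentile 11.67. In 1370787_at the difference was -0.05 ± 0.09 (0.756). The first call was lost without instilled animal 374 (0.38, 0.0543), and the second without instilled animal 369 (0.23, 0.151) or water animal 352 (0.29, 0.0692). In a fit on these 2 groups alone neither was called (0.0732 and 0.15). The probe set 1370787_at was itself higher in air of the second array set than of the first, by 0.31 ± 0.09 (0.0341), the only called member there, where 4.7% of all probe sets were called.

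At 6 ppm no single Bcl2l11 probe set was called, but the mean of the 3 was, at 5 days (0.31, limma adjusted p = 0.0173) and over the 5 times (0.13, 0.00157). At 5 days the leading probe set was 0.39 ± 0.13 higher without overlap, and the adjusted p by limma was 0.372. The other probe sets gave 0.21 ± 0.09 and 0.33 ± 0.11 there (0.643 and 0.368). The mean over 5 times was 0.16 ± 0.06 (0.0741), called with cyclic loess scaling (0.19, 0.0279), with array quality weights (0.17, 0.035) and in a fit on the compared groups alone (0.0282). Over the 5 times 1370787_at gave 0.13 ± 0.04 (0.0508), called with array quality weights (0.034) and without the dimmest 25% of probe sets (0.0448).

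Bid encodes a protein that caspases of the receptor route cleave and that then acts on mitochondria. Its leading probe set, 1377759_at, rose after instillation, from values of 7.52, 7.54, 7.71 and 7.84 after water to 7.91, 8.25, 8.35 and 8.36. The groups did not overlap, and the difference was 0.56 ± 0.19 (1.48-fold, limma adjusted p = 0.0239). At 15 ppm the values of 7.85, 7.91, 7.99 and 8.07 all lay above air at 7.32, 7.38, 7.54 and 7.62, but the difference of 0.49 ± 0.19 was not called (0.1). The instillation call was lost without instilled animal 372 or 374 (0.52 and 0.52, adjusted p 0.0606 and 0.0774), without water animal 352 or 355 (0.52 and 0.53, 0.068 and 0.0648), and with array quality weights (0.53, 0.0601). The 15 ppm difference was called with array quality weights (0.49, 0.0201), with cyclic loess (0.56, 0.0479) and in a fit on the compared groups alone (0.0102).

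The other Bid probe set, 1369683_at, gave 0.53 ± 0.24 at 15 ppm (limma adjusted p = 0.193) and 0.22 ± 0.24 after instillation (0.563). The mean of both probe sets was not called after instillation (0.39, limma adjusted p = 0.153) or at 15 ppm (0.51, 0.0983). At 6 ppm and 6 h the leading probe set was -0.34 ± 0.19 against air (0.450). Its 15 ppm difference exceeded that at 6 ppm by 0.84 ± 0.27, with an adjusted p of 0.125.

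The effector probe set 1369122_at, shared by Bax and LOC681314, was 0.28 ± 0.09 higher after instillation (1.22-fold, limma adjusted p = 0.0108). The water animals had 8.28, 8.41, 8.48 and 8.64 and the instilled animals 8.59, 8.70, 8.78 and 8.86, with a small overlap. The call was lost without instilled animal 372 (0.24, 0.0501), without water animal 354 (0.23, 0.0787) and in a fit on these 2 groups alone (0.109). At 15 ppm it was 0.25 ± 0.09 higher than air of its own array set (0.0584) but 0.04 higher than the other air group (0.799). The air groups themselves differed by -0.21 ± 0.09 (0.172).

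Bak1, the other effector, has the single probe set 1368066_at and was not called. It differed by -0.10 ± 0.21 at 15 ppm (95% interval -0.51 to 0.32, limma adjusted p = 0.860) and by 0.16 ± 0.21 after instillation (-0.26 to 0.57, 0.655). Its spread between animals was wide, with an SD of 0.65 after water and 0.56 after instillation (n = 4 each).

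The guardians Bcl2 and Bcl2l1 were not called for any dose. Bcl2, probe set 1387611_at, differed by -0.06 ± 0.10 at 15 ppm (95% interval -0.27 to 0.15). Against the other air group its sign turned, with a difference of 0.23 (limma adjusted p = 0.114). After instillation it differed by 0.03 ± 0.10 (-0.17 to 0.24). The leading Bcl2l1 probe set 1370812_at gave -0.16 ± 0.13 (-0.42 to 0.11) and -0.20 ± 0.13 (-0.46 to 0.07). Its other probe sets gave -0.49 at 15 ppm and -0.47 after instillation for 1370485_a_at (0.253 and 0.180), and 0.03 and 0.01 for 1369180_at, which was -0.02 at 15 ppm against the other air group.

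The leading Bcl2l1 probe set varied among air animals with the day of collection. Its mean in air was 8.41 ± 0.07 at 6 h, 8.44 ± 0.27 at 24 h, 8.76 ± 0.18 at 5 days, 8.39 ± 0.20 at 8 days and 8.14 ± 0.12 at 19 days (SD, n = 4, or 5 at 8 days). Air animals at 5 days were highest and those at 19 days lowest, and these groups did not overlap, with 8.60 as the lowest value at 5 days and 8.26 as the highest at 19 days. This was the only 1 of the 16 member probe sets called by limma's F-test over the air times (adjusted p = 0.00913), where 11.4% of all probe sets were called. The other Bcl2l1 probe sets were not called in that F-test (adjusted p of 0.0532 for 1370485_a_at and 0.311 for 1369180_at). At an unadjusted p under 0.05 it passed 5 of 16, beside 8144 of all 31042 probe sets. In air animals, collection day and age cannot be told apart. The RNA integrity number was 7.7 to 7.9 in air at 5 days and 8.3 to 8.5 in air at 19 days. Its part in this result was not tested. Water instillation against air called none of the 16, and 0.0129% of all probe sets. At an unadjusted p under 0.05 it passed 1 of 16, beside 3216 of all 31042 probe sets.

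**Figure D4:**
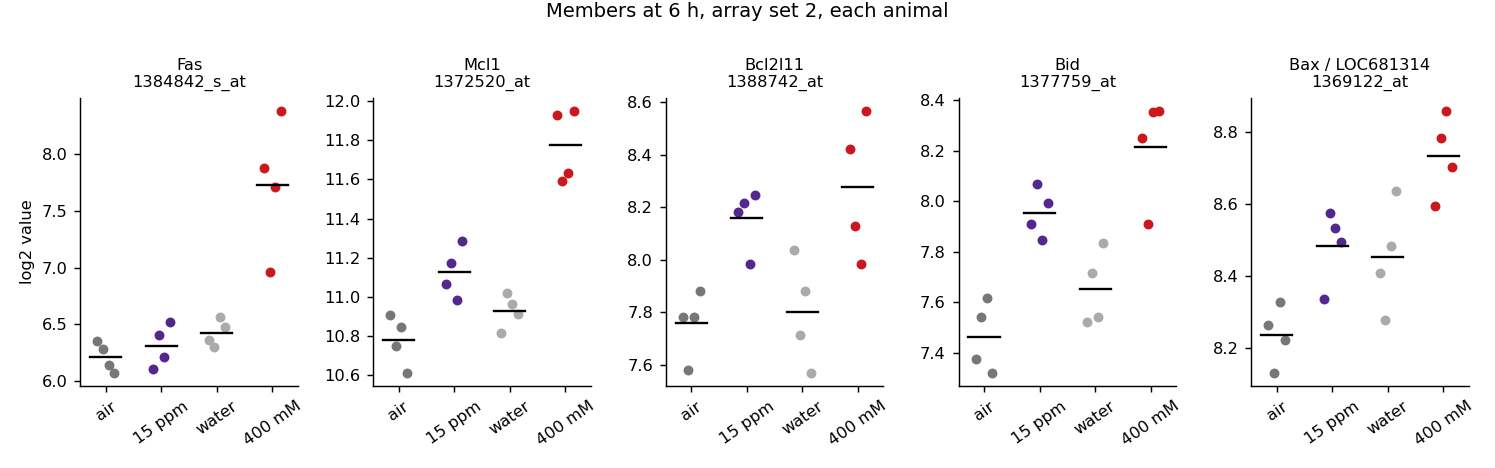
Log2 value in each animal (points) with the group mean (bars) at 6 h in the second array set, for the leading probe sets of Fas, Mcl1, Bcl2l11 and Bid and for the probe set shared by Bax and LOC681314. The instilled animals lie above water without overlap for Fas, Mcl1 and Bid, and the 15 ppm animals lie above air for Mcl1, Bcl2l11, Bid and the shared probe set.

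The separation of the groups was also counted over the 16 probe sets. At 15 ppm 4 probe sets lay wholly above air and 2 wholly below, where 16.3% of all probe sets separated. After instillation 4 lay above and none below (18.7%). At 6 ppm none lay above and 3 below at 6 h (8.82%), 1 above and none below at 24 h (4.41%), 1 above and 2 below at 5 days (4.2%), none at 8 days (1.65%), and none above and 3 below at 19 days (6.77%). At 2 ppm 1 lay below at 24 h (2.79%) and 2 below at 19 days (4.12%), and none separated at 6 h, 5 days or 8 days (3.99%, 2.16% and 1.54%). At 0.7 ppm 1 lay above at 19 days (2.06%) and none separated at 6 h, 24 h, 5 days or 8 days (3.38%, 3.56%, 2.46% and 0.763%). At 6 ppm the probe sets below at 6 h, 5 days and 19 days included Tnfsf10 and 1397221_s_at of Fas each time.

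Other genes of the pathway were read from lists of named genes, each by its leading probe set. Beside the list counts, 8.49% of all probe sets were called at 15 ppm and 22.2% after instillation. At 6 ppm the shares were 0.245% at 6 h, 0.029% at 8 days, 0.412% at 19 days and 6.37% in the mean over times. Of the other BCL2 family, 12 of 14 genes were measured. Instillation raised 1, the NF-kappaB target Bcl2a1, a guardian of myeloid cells, by 3.36 ± 0.40 (10.3-fold, limma adjusted p = 2.51e-10), and lowered 2, the death-promoting Bik (-0.61 ± 0.13) and Bcl2l14 (-0.57 ± 0.12). Bik and Bcl2l14 were also the 2 called genes at 15 ppm, both lower (-0.65 ± 0.13 and -0.40 ± 0.12). Bik was lower at 6 ppm and 19 days as well (-0.71 ± 0.13, adjusted p = 0.000794), and with Bad in the 6 ppm mean (-0.27 ± 0.06 and -0.12 ± 0.04). The list medians were 0.04 at 15 ppm and -0.07 after instillation, beside 0.01 and 0.02 over all probe sets. The neutrophil markers given with Fas rose in the same instilled animals, and their part in the pathway values was not tested.

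Of the death ligands and receptors, 10 of 11 were measured. Tnfrsf12a, the TWEAK receptor, rose at 15 ppm by 3.55 ± 0.19 (limma adjusted p = 1.32e-25), after instillation by 3.31 ± 0.19, at 6 ppm by 1.45 ± 0.19 at 6 h, 1.23 ± 0.18 at 8 days and 1.43 ± 0.19 at 19 days, and in the 6 ppm mean by 1.04 ± 0.09. It was the only called gene of the list at 15 ppm and in each of these 6 ppm comparisons. After instillation 3 were called, all higher, the other two being the cytokine Tnf (3.01 ± 0.32, 8.05-fold) and its receptor Tnfrsf1b (1.79 ± 0.23). Tnfrsf12a rose and Tnfsf10 fell in the same comparison of 6 ppm at 6 h. The list medians were 0.12 and 0.19 at 15 ppm and after instillation.

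Of the adaptors and kinases, 6 of 7 were measured. Instillation raised 3, the caspase inhibitor Cflar (1.36 ± 0.24, limma adjusted p = 7.42e-06) and the kinases Ripk3 (1.55 ± 0.22) and Ripk1 (0.39 ± 0.13). At 15 ppm Ripk3 alone was called, higher by 0.99 ± 0.22 (0.00115), and in the 6 ppm mean Tradd alone, at -0.25 ± 0.07. The list medians were 0.24 and 0.25 at 15 ppm and after instillation.

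Of the caspases and apoptosome genes, 11 of 14 were measured, and none was called at 15 ppm (list median -0.14, and 0.02 after instillation). Instillation raised Casp8, the initiator caspase of death receptors (0.73 ± 0.23, limma adjusted p = 0.0166), Casp4 (0.51 ± 0.13) and Apaf1 (0.53 ± 0.14). It lowered Diablo (-0.30 ± 0.08) and Endog (-0.37 ± 0.11), which encode mitochondrial proteins. In the 6 ppm mean Casp6, Apaf1 and Endog were lower, by 0.17 to 0.19 on the log2 scale. Of the inhibitors of apoptosis, 4 of 5 were measured. Xiap, which blocks caspases directly, fell at 15 ppm (-0.41 ± 0.13, 0.0361) and after instillation (-0.62 ± 0.13, 0.00015), while instillation raised Birc3 (1.99 ± 0.29) and Birc2 (0.50 ± 0.09). The medians of this list were 0.10 and 0.24.

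**Figure D5:**
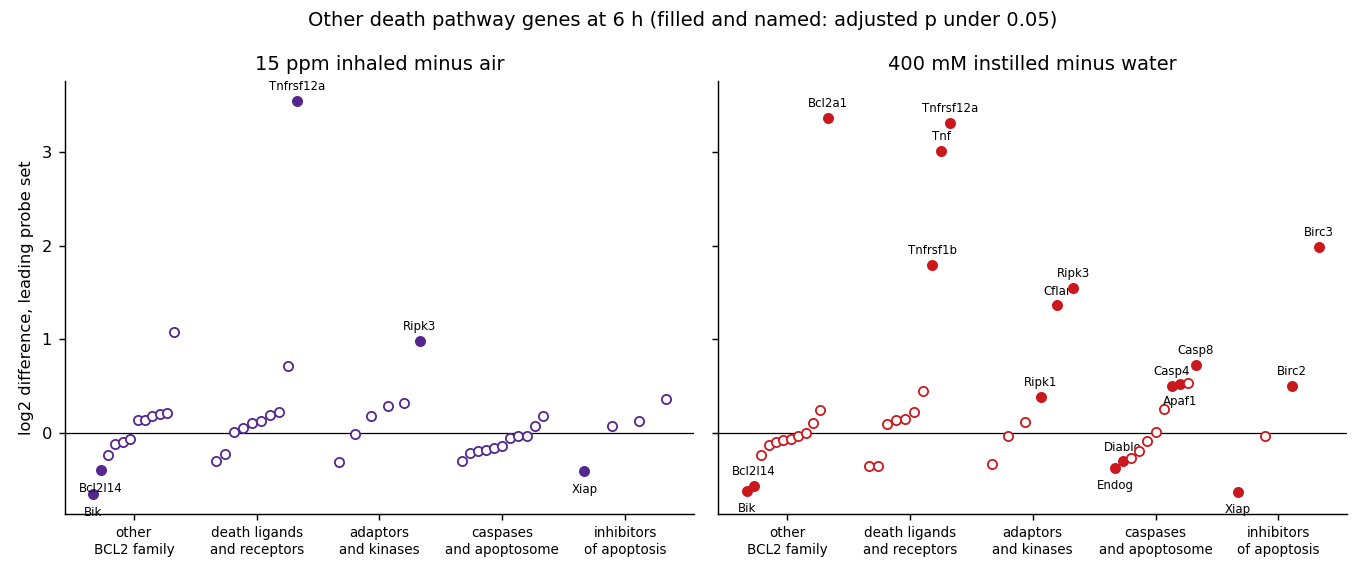
Log2 difference at 6 h of the leading probe set of each measured gene in 5 lists of other death pathway genes, for 15 ppm inhaled minus air and 400 mM instilled minus water, sorted within a list. Filled, named points have an adjusted p under 0.05. More genes are filled after instillation, where 22.2% of all probe sets were called, than at 15 ppm, where 8.49% were.

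For the 5 members called in a dose comparison, the genes outside the members with the most similar pattern were found by Pearson correlation of the 24 group means, among 14209 genes. The groups share arrays, scaling and controls, so the values are descriptions. Tnfsf10 was most like Ptpn18 (r = 0.89), RT1-M3-1, an MHC class I gene (0.88), and Tor4a (0.86). Fas was most like Tlr1, a receptor of bacterial lipopeptides (0.94), Slfn2 (0.93) and Neurl3 (0.92). Mcl1 was most like Armcx5 (0.89), Tox4 (0.89) and Nip7 (0.87), and Bid like Tgif1 (0.92), Ube2z (0.92) and Sfpq (0.91). Bcl2l11 was most like Sprtn, a protease that digests DNA-protein crosslinks (0.93), Slc7a11, the cystine importer (0.91), and Usp27x (0.90). Slc7a11 differed by 2.54 at 15 ppm, 1.92 after instillation and 1.30 at 6 ppm and 6 h on the log2 scale, where Bcl2l11 differed by 0.40, 0.47 and 0.18.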

How the data were processed

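The deposited table holds log2 values per probe set for 98 arrays, and its scale was read from the values (2.67 to 14.8). The authors' normalization and background correction are not given in the sources used here. Between arrays, values of equal rank had SDs up to 0.0646, so the deposited log2 values were already on 1 scale. Probe sets were named through GEO's platform annotation, updated by gene ID: of 31042 non-control probe sets, 20826 name 1 gene, 436 several and 9780 none. Where a gene has several probe sets, the one with the highest mean leads.

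limma 3.58.1 in R 4.3.3 fitted all 98 arrays with 1 coefficient per group (74 residual degrees of freedom), with Benjamini-Hochberg adjustment over all probe sets of a comparison and calls at an adjusted p under 0.05; all tests were two-sided. Replicates are separate animals. The number of arrays limits the precision. The members, lists and tests were chosen with earlier results of these data known. Named genes were all 9 members, up to 4 called genes with the smallest p (all, where 5 or fewer) per pathway list and comparison, and the 3 most similar genes per called member. The code was tested on simulated data. Alternatives were other scaling, filters, priors, weights, RNA integrity, compared groups alone, another air group, probe set means and leaving out each animal. For animals at 0.7 ppm and 8 days the dose in the treatment protocol is 0.07 ppm, while their titles and source names give 0.7. The design text leaves out the 8 day time that the labels give. The array set was taken from the project tag in the sample names.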

Additional observations from a re-analysis of the deposited data

Results flagged for a closer look

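The Fas effects of 15 ppm and of instillation differed, by -1.21 on the log2 scale (limma, adjusted p = 0.000381), but not in a limma fit on the compared groups alone (0.122). In 17 of 408 groups of member values (17 probe sets in 24 groups) 1 animal stood apart from the rest of its group, and chance gives about 1 in 20. The groups behind a call of a single probe set were 1370141_at of Mcl1 after instillation, with a low animal at 10.24 that still lay above all water animals, and 1397221_s_at of Fas, with a high animal at 4.64 in air at 19 days. Other Fas animals apart were 4.50 in the same probe set after instillation, 3.76 at 2 ppm and 8 days, and 6.11 in the leading probe set at 2 ppm and 19 days. For Bid they were 5.69 in 1369683_at in air of the second array set, 6.72 in air at 8 days, 5.77 at 6 ppm and 19 days, and 7.27 in 1377759_at at 2 ppm and 8 days. For Bcl2l11 they were 3.61 in 1387338_s_at at 6 ppm and 5 days and 5.25 in 1370787_at at 2 ppm and 5 days. For Bcl2l1 they were 4.73 and 4.91 in 1370485_a_at in air at 6 h and 8 days. The rest were Bak1 at 5.38 and Bcl2 at 4.89 in air at 24 h, and the probe set shared by Bax and LOC681314 at 8.45 at 0.7 ppm, at both 5 and 8 days. The Fas group with 4.50 and the Bcl2l11 group with 3.61 enter called means of their gene's probe sets.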

How the results depend on the processing

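The 41 member differences recomputed were those with an unadjusted p under 0.05 in the main comparisons, and none changed sign in the settings run for them. Outside these, air of the first array set as control turned the sign of 3 uncalled differences at 15 ppm, of Bcl2 (-0.06 to 0.23), 1370787_at of Bcl2l11 (-0.05 to 0.26, then called) and 1369180_at of Bcl2l1 (0.03 to -0.02). Array quality weights moved the called member probe sets from 2 to 4 at 15 ppm, from 0 to 1 at 6 ppm and 5 days and from 2 to 4 in the 6 ppm mean. A fit on the compared groups alone moved them from 1 to 0 for 6 ppm at 6 h, for the 2 ppm mean and for the difference of the 15 ppm and instillation effects. An intensity trend with a robust prior gave 0 for the 2 ppm mean, the RNA integrity number gave 0 for 6 ppm at 6 h, and leaving out the dimmest 25% of probe sets gave 1 at 6 ppm and 19 days. Without 1 animal at a time the counts ran from 0 to 2 at 15 ppm, 4 to 6 after instillation, 0 to 1 at 6 ppm and 6 h, 0 to 1 at 6 ppm and 19 days, 1 to 3 in the 6 ppm mean and 0 to 1 in the 2 ppm mean. Cyclic loess, and air of the first array set for 15 ppm, left these counts within 1.5 times. Genes taken as the mean of their probe sets gave 1 called member gene at 15 ppm in place of 2, 3 in the 6 ppm mean in place of 1, and 1 in place of 0 at 6 ppm at both 5 and 19 days. The genes gained in the 6 ppm mean were Bcl2l11 and Fas. After instillation Bid was not called by such means, while Fas, Mcl1 and Bcl2l11 were. No paired analysis was possible because the replicate numbers are animal IDs that no groups share. Dim probe sets and groups of 4 limit what could be called.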
